A study of Mus musculus with 94 samples.

Results

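The genes described here are Ctcf, Atrx and 8 genes of the cohesin complex and its regulators (Smc1a, Smc3, Rad21, Stag1, Stag2, Nipbl, Pds5a and Esco1). The members are all probe sets whose array annotation names 1 of these genes alone, 35 of the 45101 probe sets on the array, and the 10 genes are among 18194 genes named by such probe sets. The genes were chosen by their differences between methylazoxymethanol (MAM) and vehicle brains, so every MAM difference below is a description and supports nothing.

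Brain RNA was measured on Affymetrix Mouse Genome arrays after a single intraperitoneal injection of MAM or vehicle, with 1 array per animal. MAM is the aglycone of the cycad toxin cycasin and methylates guanine in DNA, and Mgmt encodes the methyltransferase that takes this lesion off again. The animals were male C57BL6 mice aged 11 weeks, either Mgmt-/- (the gene is disrupted in every cell) or wt. The 16 groups were Mgmt-/- MAM, Mgmt-/- vehicle, wt MAM and wt vehicle, each at 6, 24, 48 and 168 hr, with 6 arrays per group except 5 in Mgmt-/- MAM at 168 hr, in wt MAM at 168 hr and in wt vehicle at 48 hr. Brain tissue of either genotype mixes all its cell types, so that fewer cells of a type and less RNA per cell cannot be told apart.

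CTCF binds insulator sites in DNA and stops the cohesin ring as it extrudes chromatin loops, which sets which enhancers and promoters can meet. The ring is built from SMC1A, SMC3 and RAD21 together with either STAG1 or STAG2. NIPBL loads it, PDS5A regulates its release and ESCO1 acetylates SMC3. ATRX is a chromatin remodeller that works with DAXX to place histone H3.3 at repeats and telomeres, and mutations of ATRX, as of several cohesin genes, cause intellectual disability in people.

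Of the 94 arrays, 93 were used. The Mgmt-/- MAM array MGMT.MAM.168.343 was left out because its liver markers had a median of 13.6 log2 units, against 4.24 to 6.85 in the other arrays. Brain identity held in the 93 arrays, where the neuronal marker Rbfox3 lay between 11.46 and 12.05 log2 units and the mean of 6 neuronal markers was 11.7 to 11.8 in every group. The Mgmt probe set read 5.09 to 6.45 log2 units in 47 Mgmt-/- arrays and 5.49 to 6.21 in 46 wt arrays, and since the part of the gene it covers is not known here, it does not check the genotype labels. Values are log2 units of RMA, a normalization across arrays that gives 1 value per probe set. Each probe set binds in its own way, so levels of different probe sets are not comparable, and only differences between groups are compared. Calls needed a fold change over 1.3 with a Benjamini-Hochberg rate of 0.05 in a limma fit per time point, once probe sets whose effects differed between 2 sets of animal numbers (number sets 1 and 2) had been set aside. The study was run in 2 laboratories, and the number sets were taken to stand for them, which the labels do not state. This filter kept 9, 11, 20 and 20 of the 35 member probe sets at 6, 24, 48 and 168 hr.

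MAM in Mgmt-/- brain was marked by a split within Ctcf, Atrx and Esco1: 1 or more probe sets of each gene stood far below vehicle, while the others of that gene differed by between -0.49 and 0.20. Called lower were Atrx probe set 1450051 at 24 and 48 hr, Ctcf 1449042 at 48 hr and Esco1 1424325 at 48 hr. Members called lower numbered 0 of 9 at 6 hr, 1 of 11 at 24 hr, 3 of 20 at 48 hr and 0 of 20 at 168 hr, beside 1.17%, 0.551%, 0.425% and 0.244% of all kept probe sets. Without that filter 2, 3, 4 and 2 of the 35 were lower, beside 0.854%, 0.576%, 0.581% and 0.302% of all. Nothing is read from these counts, because the MAM responses chose the genes. None of the Smc1a, Smc3, Rad21, Stag1, Stag2, Nipbl and Pds5a probe sets was called after MAM in either genotype.

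Ctcf is read by probe sets 1449042 and 1418330, which the annotation lists under the same sequence record. At 48 hr, Ctcf 1449042 read 7.13 (lowest), 7.24 (median) and 7.97 (highest) log2 units in Mgmt-/- MAM brains, against 7.98, 8.63 and 8.87 in Mgmt-/- vehicle brains. Every MAM array of Mgmt-/- mice lay below every vehicle array, by a margin that was narrow at the edge. The difference was -1.16 ± 0.18 log2 units (SE), or 44.6% of the vehicle level, and it was -1.15 and -1.18 in number sets 1 and 2.

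In wt brain at 48 hr the same Ctcf probe set read 8.18, 8.76 and 9.27 after MAM, against 7.72, 8.08, 8.43, 8.70 and 8.74 after vehicle, a difference of 0.37 ± 0.19 (SE) between groups that overlapped. The vehicle arrays of both genotypes and the wt MAM arrays thus overlapped, and of the Mgmt-/- MAM arrays only the highest reached above the lowest wt vehicle array. At 6 hr Ctcf 1449042 read 7.04, 7.72 and 7.85 in Mgmt-/- MAM brains, against 8.23, 8.58 and 8.98 in Mgmt-/- vehicle brains (-1.0 ± 0.18). At 24 hr it read 6.94, 7.50 and 7.85, against 8.11, 8.49 and 9.20 (-1.12 ± 0.13). The groups did not overlap at either time, but both values were set aside because the number sets differed. In wt brain the differences at 6, 24 and 168 hr were -0.24, -0.36 and -0.15, all set aside, so that they had the sign of the Mgmt-/- differences there and the opposite sign at 48 hr. At 168 hr the 5 Mgmt-/- MAM arrays read 6.99, 7.09, 7.14, 7.57 and 7.71, against 7.18, 8.49 and 9.06 as the lowest, median and highest of Mgmt-/- vehicle. Here the groups overlapped, and the difference of -0.98 ± 0.22, also set aside, came from -0.50 in number set 1 against -1.44 in set 2.

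Ctcf 1418330 gave no such difference. In Mgmt-/- brain it differed from vehicle by 0.04, -0.01, -0.02 and 0.05 log2 units at the 4 times in order, each with an SE of 0.08 or 0.09. At 48 hr it read 8.36, 8.67 and 8.82 in Mgmt-/- MAM brains, against 8.51, 8.67 and 8.81 in Mgmt-/- vehicle brains. The 2 probe sets of Ctcf therefore differed by over 1 log2 unit in their MAM response at 48 hr, although both are annotated to the same sequence.

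**Figure D1:**
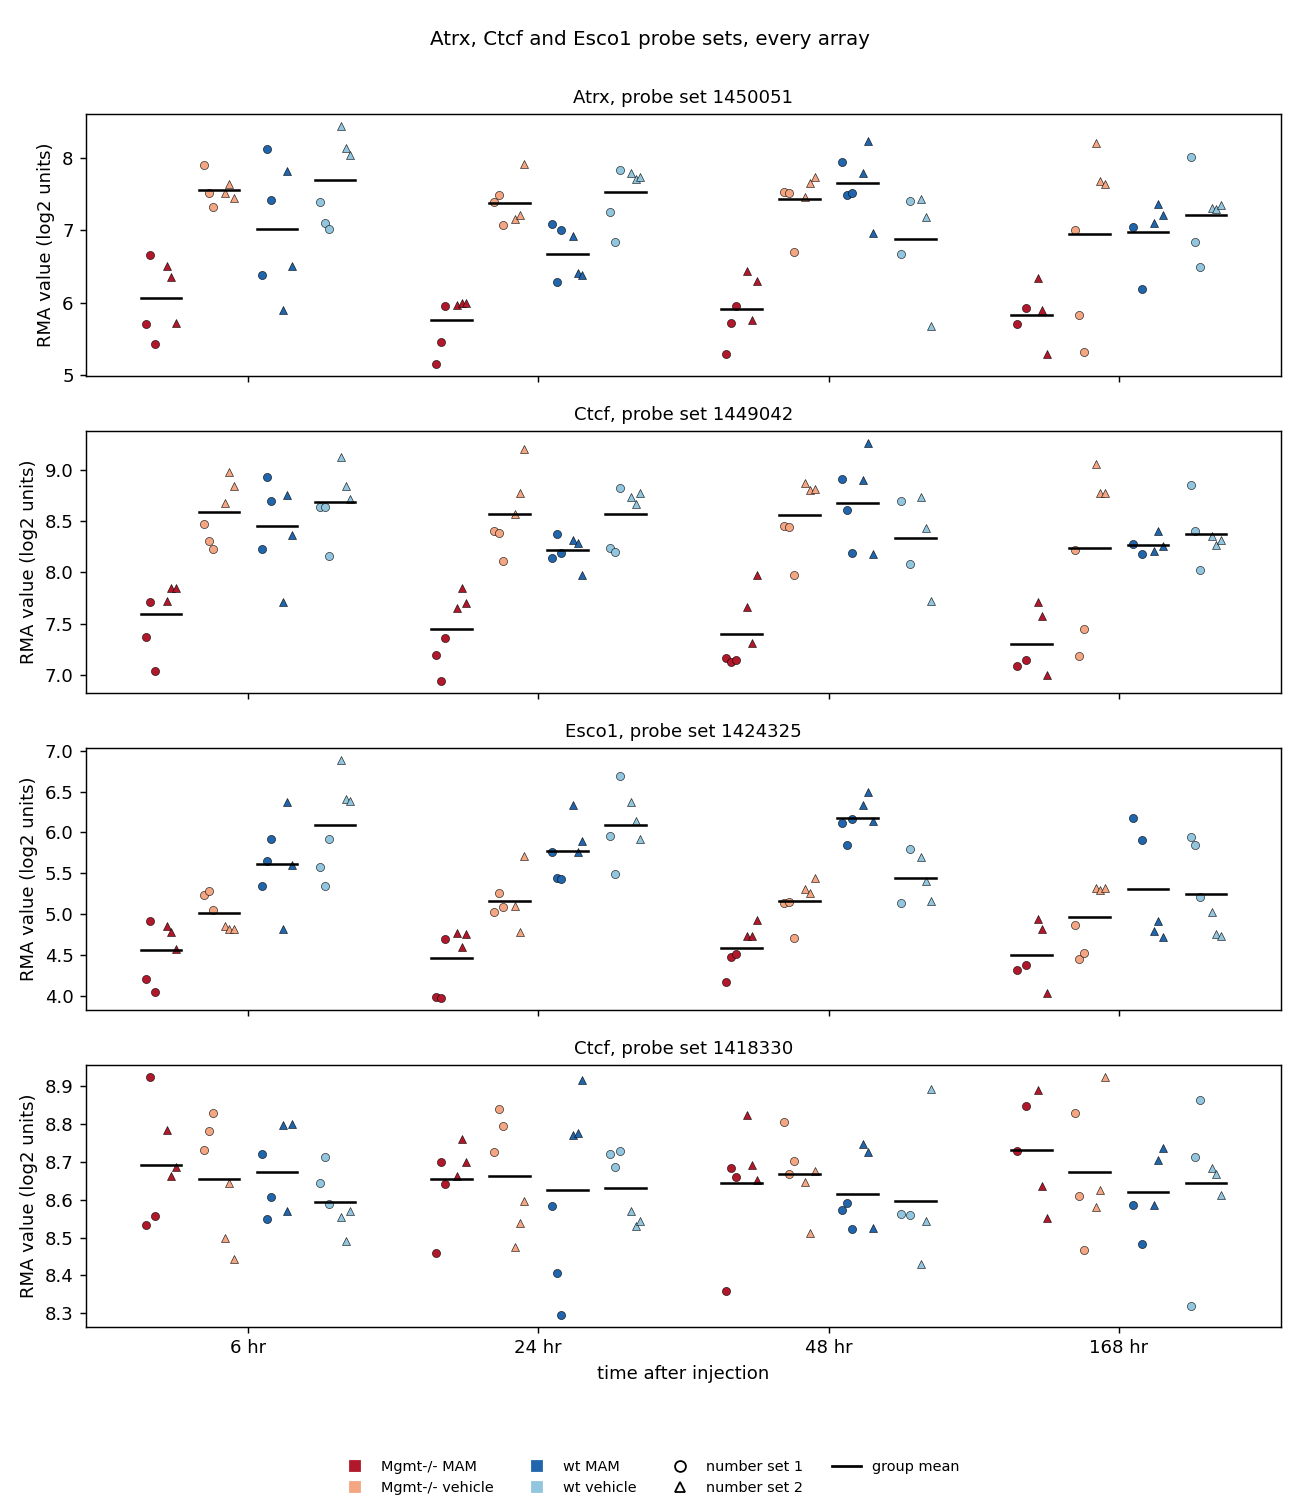
Log2 RMA value (vertical axis) of every array for the probe sets called lower after MAM in Mgmt-/- brain and for Ctcf 1418330, by group and time (horizontal axis). Each point is 1 animal, circles and triangles are number sets 1 and 2, and bars are group means. The Mgmt-/- MAM arrays of Ctcf 1449042 and Atrx 1450051 lay below the Mgmt-/- vehicle arrays without overlap at 6, 24 and 48 hr.

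Atrx has 7 probe sets, of which 1420945, 1420946, 1420947, 1420948 and 1450051 are listed under 1 sequence record. At 24 hr, Atrx 1450051 read 5.15, 5.96 and 6.0 log2 units in Mgmt-/- MAM brains, against 7.07, 7.30 and 7.91 in Mgmt-/- vehicle brains, a difference of -1.62 ± 0.18 (SE) or 32.6% of the vehicle level. At 48 hr it read 5.30, 5.86 and 6.43, against 6.70, 7.52 and 7.74 (-1.52 ± 0.25, or 34.8%). The groups did not overlap at either time, and each number set alone gave between -1.44 and -1.80.

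At 6 hr Atrx 1450051 read 5.43, 6.04 and 6.65 in Mgmt-/- MAM brains, against 7.32, 7.51 and 7.90 in Mgmt-/- vehicle brains (-1.50 ± 0.32, set aside). At 168 hr it read 5.29, 5.71, 5.90, 5.93 and 6.34, against 5.32, 7.32 and 8.20 (-1.18 ± 0.34, set aside). The difference at 168 hr came from -0.24 in number set 1 against -2.0 in set 2, and a vehicle array reached down to the MAM range. In wt brain the same probe set differed by -0.67 at 6 hr and -0.30 at 168 hr, both set aside. It read 6.28, 6.66 and 7.08 after MAM at 24 hr, against 6.84, 7.72 and 7.84 after vehicle in wt brain (-0.85 ± 0.18, not called). At 48 hr the sign was the other way, with 6.96, 7.65 and 8.23 in wt MAM brains, against 5.68, 6.67, 7.18, 7.40 and 7.43 in wt vehicle brains (0.80 ± 0.26, not called).

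Atrx 1420947 moved much as 1450051 did. In Mgmt-/- brain it differed from vehicle by -0.85 at 6 hr (kept by the filter, not called), and by -1.21, -1.21 and -1.28 at 24, 48 and 168 hr, all set aside. At 24 hr its values were 5.59, 6.49 and 7.03 in Mgmt-/- MAM brains, against 7.20, 7.49 and 8.33 in Mgmt-/- vehicle brains. The groups did not overlap at 6, 24 or 48 hr. The Atrx probe sets 1433537 and 1453734 differed by between -0.04 and 0.09 over the 4 times, and 1420946 by between -0.09 and 0.20, so the 7 Atrx probe sets spanned 1.61 log2 units in their MAM difference at 48 hr.

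Esco1 1424325 gave the smallest of the called differences. Its Mgmt-/- MAM values at 24 and 48 hr all lay under 5 log2 units, the limit used here for the mean of a dim probe set. At 48 hr it read 4.17, 4.62 and 4.93 log2 units in Mgmt-/- MAM brains, against 4.71, 5.20 and 5.44 in Mgmt-/- vehicle brains (-0.57 ± 0.12 SE, or 67.2% of the vehicle level), with some overlap. At 24 hr it read 3.98, 4.65 and 4.77, against 4.78, 5.10 and 5.71 (-0.69 ± 0.18). The groups did not overlap at 24 hr, yet the probe set was not called there. In wt brain at 48 hr it read 5.85, 6.15 and 6.49 after MAM, against 5.14, 5.16, 5.41, 5.69 and 5.80 after vehicle, a difference of 0.76 ± 0.12 that missed the threshold although the groups did not overlap. Esco1 1424324, listed under the same sequence record, differed in Mgmt-/- brain by 0.13, 0.03, -0.11 and 0.00 at the 4 times.

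Counted by overlap, 3, 4, 3 and 0 of the 35 member probe sets had all Mgmt-/- MAM arrays below all Mgmt-/- vehicle arrays at 6, 24, 48 and 168 hr, beside 1.23%, 0.827%, 0.599% and 0.614% of all probe sets. These were Atrx 1450051, Atrx 1420947 and Ctcf 1449042 at the first 3 times, joined by Esco1 1424325 at 24 hr. The middle of the members did not follow them. The median MAM difference of the 35 in Mgmt-/- brain was 0.01, -0.02, -0.07 and -0.03 at the 4 times, beside 0.01, 0.02, 0.00 and -0.01 over all probe sets, and 29, 31, 30 and 31 of the 35 lay within 0.3 of zero.

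**Figure D2:**
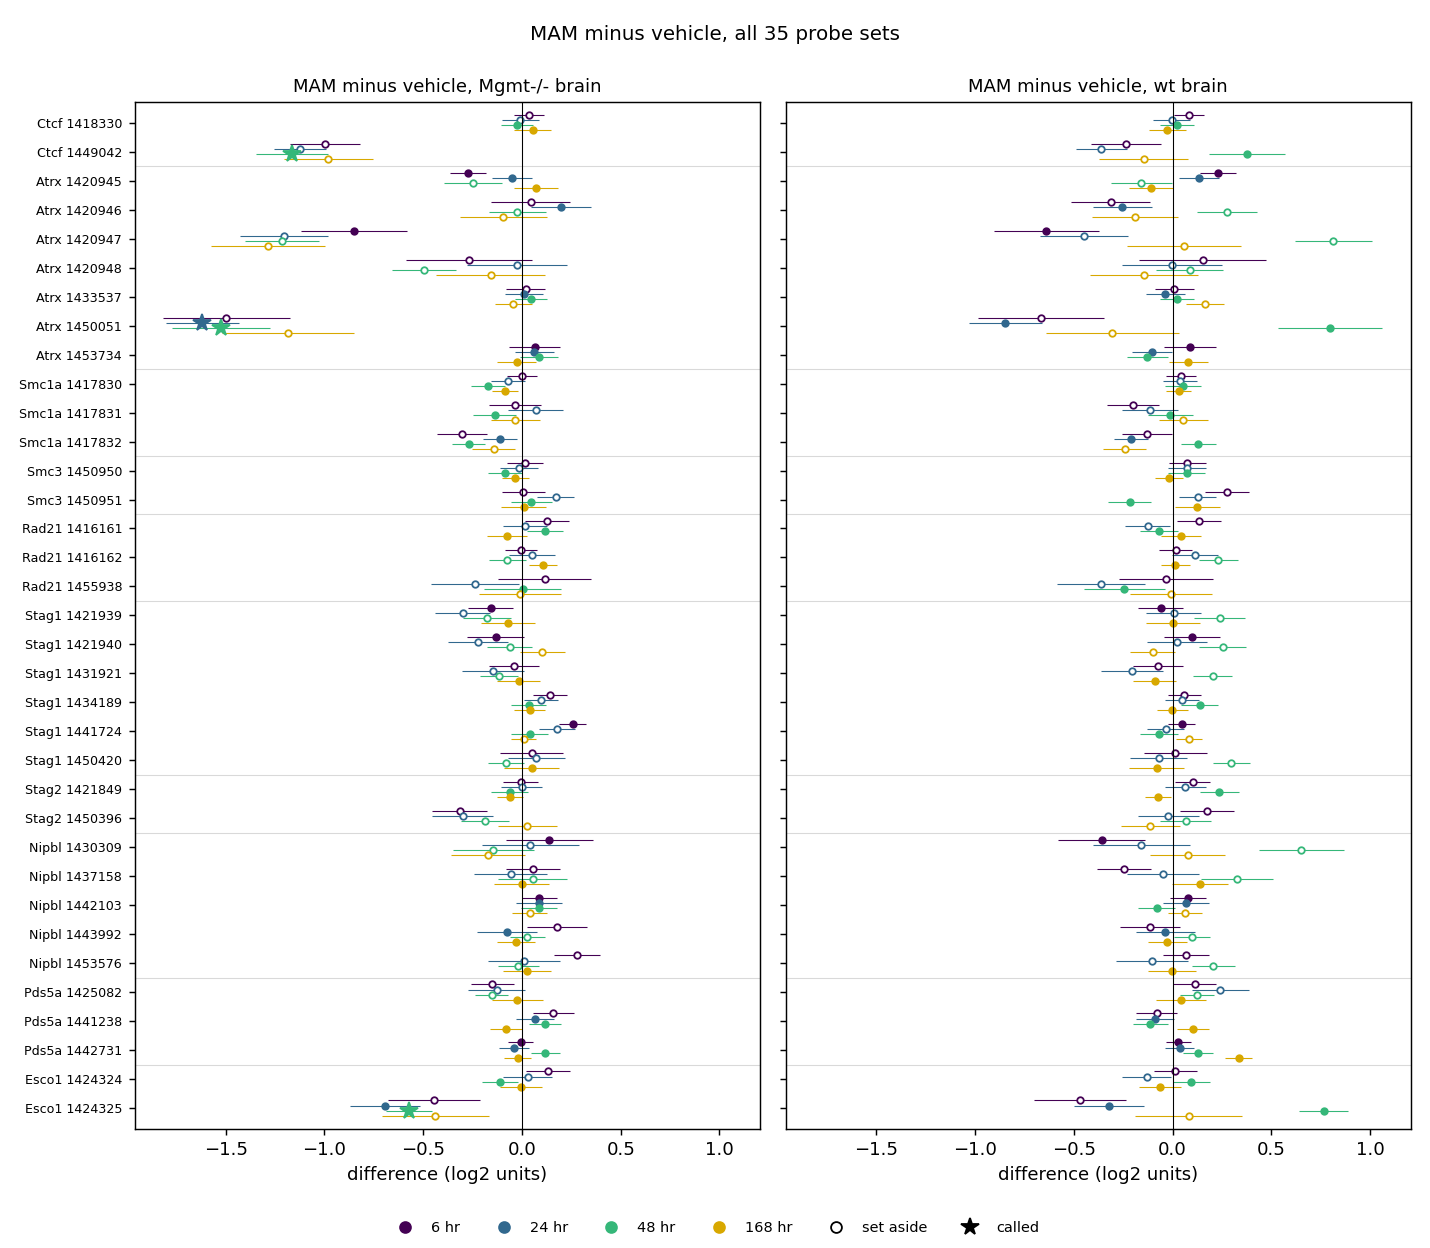
MAM minus vehicle in log2 units (horizontal axis) for all 35 member probe sets (vertical axis), with Mgmt-/- brain left and wt brain right. Points are estimates with SE bars, coloured by time, open where the number-set filter set the probe set aside, and stars mark calls. The 4 called points lie between -1.62 and -0.57 in Mgmt-/- brain, and wt brain has none.

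The ring subunits and their loader stayed near vehicle. Smc1a 1417830, a core ATPase of the ring, read 8.94, 9.0 and 9.23 in Mgmt-/- MAM brains at 48 hr, against 9.05, 9.12 and 9.55 in Mgmt-/- vehicle brains (-0.17 ± 0.09 SE). At 24 hr it read 8.93, 9.07 and 9.15, against 8.81, 9.17 and 9.38 (-0.07 ± 0.09). In wt brain it read 8.99, 9.10 and 9.20 after MAM at 48 hr, against 8.84, 8.90, 8.92, 9.12 and 9.37 after vehicle. These groups of Smc1a 1417830 overlapped. Smc1a 1417832 was the furthest from zero among the 3, with differences of -0.30, -0.11, -0.27 and -0.14 in Mgmt-/- brain at the 4 times.

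Smc3 1450950, the partner ATPase, read 8.29, 8.45 and 8.61 in Mgmt-/- MAM brains at 48 hr, against 8.25, 8.46 and 8.94 in Mgmt-/- vehicle brains (-0.09). At 24 hr the Smc3 probe set read 8.33, 8.39 and 8.64, against 8.08, 8.52 and 8.69 (-0.02). The ranges of Smc3 overlapped throughout. Rad21, the kleisin that closes the ring, is read by 3 probe sets whose MAM differences in Mgmt-/- brain lay between -0.24 and 0.13 at all 4 times.

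Stag1 1434189 and Stag2 1421849 read the alternative subunits that bind the kleisin. Stag1 1434189 read 7.20, 7.59 and 7.77 in Mgmt-/- MAM brains at 48 hr, against 7.34, 7.46 and 7.83 in Mgmt-/- vehicle brains (0.03), and 7.45, 7.56 and 7.76 against 7.19, 7.60 and 7.71 at 24 hr (0.10). Stag2 1421849 read 9.10, 9.33 and 9.50 in Mgmt-/- MAM brains at 48 hr, against 9.23, 9.34 and 9.63 in Mgmt-/- vehicle brains (-0.06), and 9.02, 9.36 and 9.53 against 9.11, 9.24 and 9.64 at 24 hr (0.00). Neither subunit separated by treatment. The second Stag2 probe set, 1450396, differed by -0.32, -0.30, -0.19 and 0.03, and the 6 Stag1 probe sets ranged from -0.30 to 0.26 over the 4 times.

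Nipbl 1437158, the loader, read 7.42, 7.84 and 8.11 in Mgmt-/- MAM brains at 48 hr, against 7.46, 7.79 and 8.07 in Mgmt-/- vehicle brains (0.05). At 24 hr it read 7.24, 7.98 and 8.41, against 7.81, 7.92 and 8.20 (-0.06). Pds5a 1425082, the release factor, read 5.64, 6.13 and 6.24 in Mgmt-/- MAM brains at 48 hr, against 5.92, 6.21 and 6.29 in Mgmt-/- vehicle brains (-0.15). The groups of these Nipbl and Pds5a probe sets overlapped at the times given. Their other probe sets did not pass the test after MAM in either genotype, and Nipbl 1430309 had the largest wt difference of the loader at 48 hr, 0.65, which was set aside.

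In wt brain no member was called after MAM at any time, beside 0% of all kept probe sets at 6, 24, 48 and 168 hr. At an unadjusted p under 0.05, 2 of 9, 2 of 11, 3 of 20 and 1 of 20 kept members differed in limma, beside 4.82%, 6.72%, 15.0% and 3.92% of all kept probe sets. At 48 hr the wt MAM and wt vehicle arrays did not overlap for 2 members, Atrx 1420947 (0.81) and Esco1 1424325 (0.76), both higher after MAM, beside 0.792% of all probe sets. At 168 hr Pds5a 1442731 alone was higher without overlap (0.34), beside 0.146%. This probe set was dim, with group means from 3.36 to 3.70 log2 units, under the limit of 5 used here for dim probe sets.

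The MAM responses of the genotypes differed most at 48 hr, where the MAM difference ran down in Mgmt-/- and up in wt brain. The wt vehicle reference was itself lower at 48 hr than at 6 and 24 hr. Fitted wt vehicle means at 6, 24, 48 and 168 hr were 7.69, 7.53, 6.84 and 7.22 for Atrx 1450051. They were 8.69, 8.57, 8.32 and 8.37 for Ctcf 1449042, and 6.09, 6.09, 5.44 and 5.25 for Esco1 1424325. The part of this reference in the interactions was not tested. The interaction, MAM minus vehicle in Mgmt-/- minus that in wt, was -2.32 ± 0.36 (SE) for Atrx 1450051, -1.54 ± 0.27 for Ctcf 1449042 and -1.34 ± 0.17 for Esco1 1424325. All 3 were called, out of 20 kept members, beside 0.762% of kept probe sets called lower. At 6, 24 and 168 hr 0 members were called, beside 0.0677%, 0% and 0.0187%. The number sets alone gave -2.20 and -2.35 for Atrx, -1.33 and -1.67 for Ctcf, and -1.18 and -1.44 for Esco1. Of these 3 interactions at 48 hr, only that of Esco1 in set 2 passed the call thresholds when a number set was fitted alone. The median interaction of the 35 at 48 hr was -0.22, against 0.01 over all probe sets.

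The vehicle brains of the 2 genotypes were compared directly. Their arrays also entered the MAM differences that chose the genes, so the values and calls of the members are a description and support nothing. Esco1, Atrx and Rad21 each had 1 or more probe sets lower in Mgmt-/- than in wt vehicle brains, and 4 calls were made in all. Lower calls numbered 0 of 9, 3 of 11, 1 of 20 and 0 of 20 kept members at 6, 24, 48 and 168 hr, beside 2.48%, 3.03%, 1.94% and 0.0531% of kept probe sets. Without the number-set filter, 2, 6, 3 and 0 of the 35 passed in either direction, beside 4.22%, 5.79%, 3.53% and 0.392% of all. All of these counts are few and several probe sets read the same gene, so none is read against those shares. By time among vehicle brains no member was called (limma, 0 of 14 kept in Mgmt-/- and 0 of 19 in wt, beside 0.00477% and 0.1%), with 2 and 6 at an unadjusted p under 0.05, beside 5.48% and 16.2% of kept probe sets. The widest drift among the wt vehicle means of kept probe sets was 0.85 in Atrx 1450051.

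Esco1 1424325 read 4.78, 5.10 and 5.71 log2 units in Mgmt-/- vehicle brains at 24 hr, against 5.49, 6.05 and 6.69 in wt vehicle brains. The acetyltransferase's probe set differed by -0.93 ± 0.18 (SE), or 52.4% of the wt level, with -0.92 and -0.95 in number sets 1 and 2. At 6 hr it read 4.82, 4.96 and 5.28 in Mgmt-/- vehicle brains, against 5.35, 6.15 and 6.89 in wt vehicle brains. The groups did not overlap at 6 hr, but number sets 1 and 2 gave -0.42 and -1.73 and the value was set aside. The vehicle arrays MGMT.VEH.6.903 and MGMT.VEH.6.905 of this group had microglial markers at 7.06 and 6.90, against 7.99 to 8.23 in its other arrays, and oligodendrocyte markers at 9.87 and 9.98, against 10.41 to 10.66. Without them the 6 hr genotype difference of Esco1 1424325 was -0.90, against -1.08 with them, and the 6 hr MAM differences in Mgmt-/- brain were -1.55 for Atrx 1450051, then kept by the filter and called, and -0.88 for Ctcf 1449042. At 48 and 168 hr the differences were -0.25 and -0.29.

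Atrx 1420946 read 6.40, 6.63 and 7.20 in Mgmt-/- vehicle brains at 24 hr, against 7.35, 7.59 and 7.89 in wt vehicle brains, without overlap. The difference was -0.91 ± 0.15. Atrx 1420945 read 5.94, 6.02 and 6.25 in Mgmt-/- vehicle brains, against 6.31, 6.55 and 6.69 in wt vehicle brains, also without overlap (-0.47 ± 0.10). After MAM the genotype difference of Atrx 1420946 at 24 hr was -0.46, not called, with 6.23, 7.11 and 7.17 in Mgmt-/- MAM brains and 7.06, 7.39 and 7.58 in wt MAM brains, which overlapped. Between the genotypes after MAM, 1 of 9, 3 of 11, 4 of 20 and 0 of 20 kept members were called lower at the 4 times. These stood beside 4.66%, 3.84%, 6.82% and 0.943% of kept probe sets, and they are a description only. Atrx 1420945 and 1420946 were not the Atrx probe sets called lower after MAM in Mgmt-/- brain.

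The Atrx probe sets went in opposite directions between genotypes. Atrx 1420947 was higher in Mgmt-/- than in wt vehicle brains by 0.47, 0.76, 1.21 and 0.26 at the 4 times, and at 48 hr it read 7.05, 7.53 and 7.92 against 5.51, 6.31, 6.33, 6.73 and 6.78, without overlap. Atrx 1420948 differed by -0.90, -1.41, -0.65 and -0.66, and was set aside at every time. Atrx 1420947 was kept at 6 hr only. The 7 probe sets spanned 2.17 log2 units at 24 hr, from -1.41 to 0.76.

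Rad21 1455938 read 6.91, 7.61 and 8.18 in Mgmt-/- vehicle brains at 48 hr, against 8.0, 8.65, 8.66, 8.69 and 8.92 in wt vehicle brains, with 1 wt array inside the Mgmt-/- range. The difference was -0.93 ± 0.21, with -0.97 and -0.86 in number sets 1 and 2. At 6, 24 and 168 hr it differed by -0.69, -0.81 and -0.12, all set aside. The other Rad21 probe sets differed at 48 hr by -0.34 (1416161, under the fold threshold) and 0.33 (1416162, set aside). Rad21 1455938 carries the suffix that marks probes shared with other sequences, so part of its signal may not be Rad21. Of the remaining subunits, Smc1a 1417832 at 24 hr differed by -0.34 ± 0.09, under the 1.3-fold threshold, and Stag2 1421849 (0.29), Smc3 1450950 (0.26) and Stag1 1434189 (0.22) were not called at 48 hr.

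**Figure D3:**
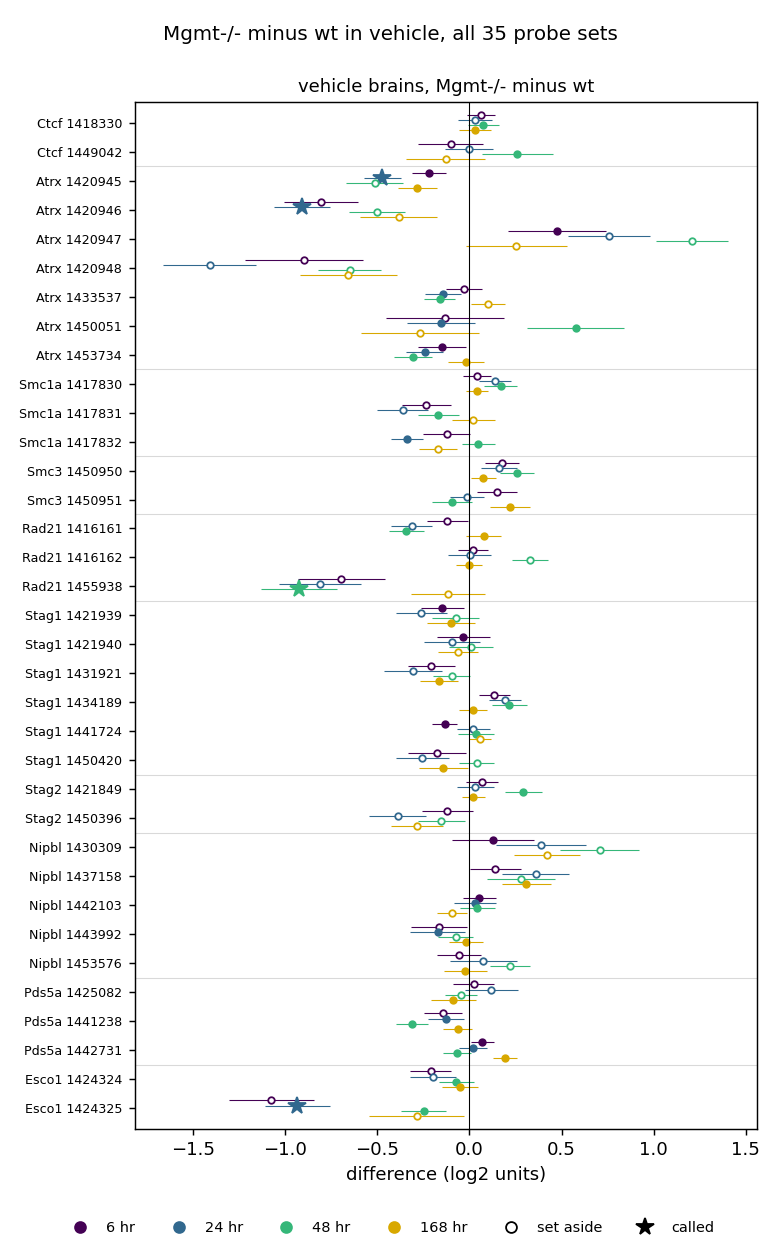
Mgmt-/- minus wt among vehicle brains in log2 units (horizontal axis) for all 35 member probe sets (vertical axis). Points are estimates with SE bars, coloured by time, open where set aside by the number-set filter, with stars for calls. Esco1 1424325, Atrx 1420945 and Atrx 1420946 at 24 hr and Rad21 1455938 at 48 hr carry the 4 stars, between -0.93 and -0.47.

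**Figure D4:**
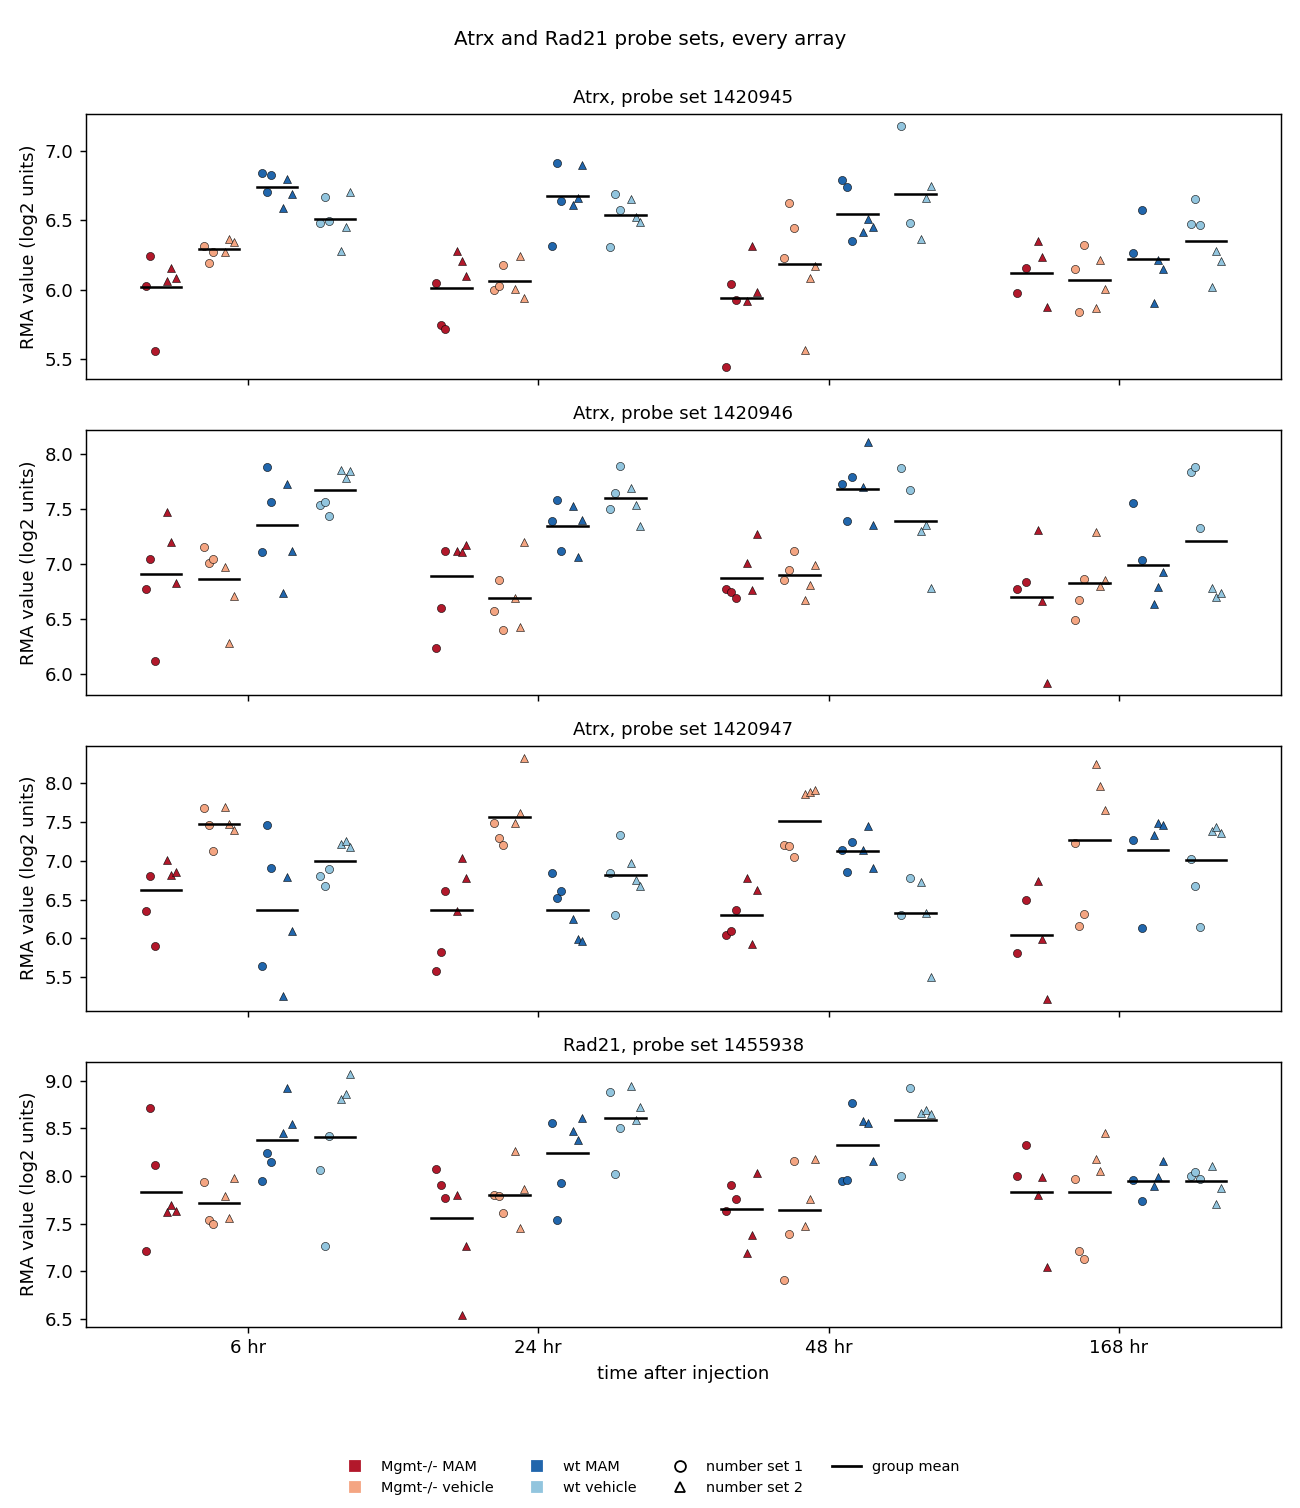
Log2 RMA value (vertical axis) of every array for the Atrx and Rad21 probe sets that differed between genotypes, by group and time (horizontal axis). Each point is 1 animal, circles and triangles are number sets 1 and 2, and bars are group means. Atrx 1420946 at 24 hr runs from 6.40 to 7.20 in Mgmt-/- vehicle and from 7.35 to 7.89 in wt vehicle, while Atrx 1420947 runs the other way at 48 hr.

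The RNA of the groups was not alike. The RNA 3'/5' index, the mean of 3' minus 5' log2 values of the Gapdh and Actb control probe sets, rises with degraded RNA or short labelled fragments. It averaged 0.63, 0.63, 0.54 and 0.52 in Mgmt-/- MAM brains at 6, 24, 48 and 168 hr, against 0.43, 0.48, 0.42 and 0.55 in Mgmt-/- vehicle brains, and 0.38, 0.39, 0.33 and 0.44 in wt MAM brains, against 0.31, 0.33, 0.33 and 0.37 in wt vehicle brains. The index was thus higher in Mgmt-/- MAM than in Mgmt-/- vehicle brains at 6, 24 and 48 hr, and higher in Mgmt-/- than in wt vehicle brains at all times. At 168 hr Mgmt-/- vehicle brains averaged 0.65 in number set 1 against 0.45 in the other set, that in which Atrx 1450051 and Ctcf 1449042 stood lower after MAM by more.

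Across the 93 arrays, which share number sets and groups, Pearson's r with the index was -0.68 for Atrx 1450051, -0.69 for Ctcf 1449042 and -0.75 for Esco1 1424325. Within groups it was -0.49, -0.50 and -0.39, and 0.17 for Ctcf 1418330. Such values were not particular to the called probe sets. The lowest within groups were -0.60 for Smc1a 1417832 and -0.54 for Atrx 1420947, neither called after MAM. Over the 35 members r within groups ran from -0.60 to 0.27, with a median of -0.12. With the index as a covariate, the MAM difference of Atrx 1450051 in Mgmt-/- brain was -0.11, -1.22, -1.37 and -1.33 at the 4 times, and that of Ctcf 1449042 was -0.10, -0.78, -1.17 and -1.10. The 6 hr differences were near zero in that fit, and those at 48 hr were close to their values without it. At 6 hr the index ran from 0.57 to 0.75 in Mgmt-/- MAM brains, against 0.42 to 0.46 in Mgmt-/- vehicle brains. These ranges did not overlap, so the 6 hr fit cannot tell the index and MAM apart. With the index, Esco1 1424325 between vehicle genotypes at 24 hr was -0.78, Atrx 1420946 was -0.66 and Rad21 1455938 at 48 hr was -1.07. Of the calls above, Atrx 1450051 after MAM at 24 hr, Rad21 1455938 between vehicle genotypes and the 3 interactions were kept in that fit, and the others no longer passed. The part of RNA quality in these results was not tested further.

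**Figure D5:**
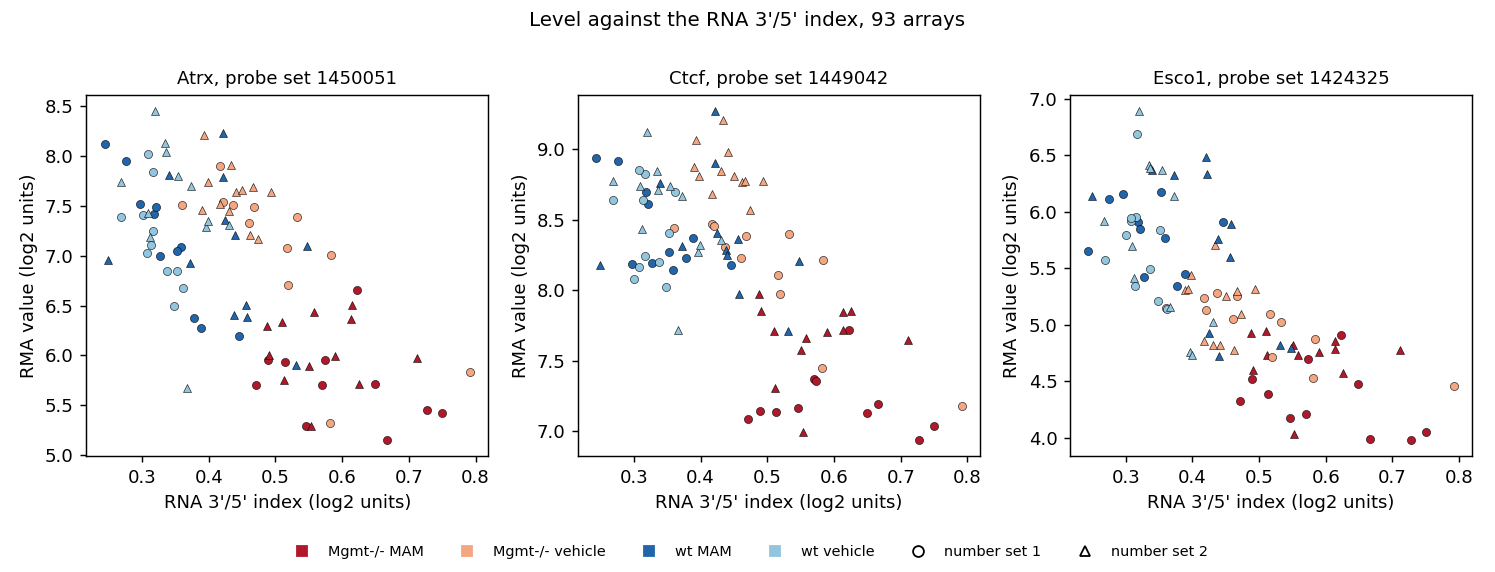
Log2 RMA value (vertical axis) of Atrx 1450051, Ctcf 1449042 and Esco1 1424325 against the RNA 3'/5' index (horizontal axis, log2 units) for the 93 arrays. Each point is 1 animal, coloured by group. Atrx 1450051, Ctcf 1449042 and Esco1 1424325 run down with the index, with r between -0.75 and -0.68. Mgmt-/- MAM arrays run from 0.47 to 0.75 on the index, and the highest array is MGMT.VEH.168.321, a vehicle brain (0.79).

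Markers of other cells were also followed. The mean of 12 liver transcripts was 5.52, 5.42, 5.0 and 5.23 in Mgmt-/- MAM brains, against 4.78, 4.78, 4.73 and 5.15 in Mgmt-/- vehicle brains, with 3 of 12 called higher at 6 hr and 1 at 24 hr. Microglial markers averaged 7.92 at 48 hr in Mgmt-/- MAM brains, against 8.13 in Mgmt-/- vehicle brains, and endothelial markers 7.63, against 7.92. Without MGMT.MAM.48.337, the lowest array in both, the Mgmt-/- MAM means were 8.0 and 7.79. Erythroid markers averaged 4.56 in Mgmt-/- MAM brains at 48 hr, against 4.90 in Mgmt-/- vehicle brains, with 1 of 2 called lower. At 168 hr the microglial means ran from 7.60 to 7.86 in Mgmt-/- MAM brains, against 7.96 to 8.17 in Mgmt-/- vehicle brains. Endothelial means there ran from 7.47 to 7.65, against 7.70 to 7.96, so neither overlapped. At 6 hr endothelial markers averaged 7.42, against 7.62, but microglial markers 7.84, against 7.74. The part of these markers in the Ctcf, Atrx and Esco1 values was not tested.

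Across the means of the 16 groups, which share controls and number sets, Ctcf 1449042 and Atrx 1450051 correlated with each other at r = 0.980, while Esco1 1424325 correlated with them at 0.798 and 0.771. The genes whose group means were most like those of Atrx 1450051 were Cdh8, a cadherin (r = 0.989), 5730455P16Rik (0.987), Ctcf (0.980), Lims1 (0.976) and Rabgap1l (0.976). Those most like Ctcf 1449042 were Fam168a (0.986), the poly(A)-binding protein gene Pabpc1 (0.983), Atrx (0.980), Pcp4l1 (0.979) and Bclaf1 (0.975). Those most like Esco1 1424325 were Tmod3 (0.978), Hook3 (0.976), the chromatin remodeller Smarca5 (0.975), Zfp91 (0.971) and Hsdl2 (0.971). Values above 0.9 were reached by 0.594%, 0.76% and 5.59% of the probe sets compared for Atrx, Ctcf and Esco1, so the likeness was least particular to Esco1.

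The other genes of these pathways had 1, 3, 1 and 1 probe sets called after MAM in Mgmt-/- brain at 6, 24, 48 and 168 hr, of 55, 56, 97 and 86 kept, beside 1.68%, 0.615%, 0.45% and 0.462% of all kept probe sets. There, 0 of 3 further cohesin subunits and 0 of 11 genes of cohesin loading, release and acetylation were called at any time. Of 15 condensin and SMC5/6 genes, Smc6 was lower at 24 hr (-0.53 ± 0.11) and Smc2, a condensin ATPase, at 168 hr (-0.47 ± 0.10). Of 9 CTCF partners measured, the zinc finger gene Maz was higher at 24 hr (0.47 ± 0.09). Of 14 ATRX partners and H3.3 genes, Cabin1, a member of the HIRA chaperone complex that places H3.3, was lower at 6, 24 and 48 hr (-0.63 ± 0.12, -0.60 ± 0.09 and -0.65 ± 0.11, all SE). In wt brain 0 genes of these lists were called, and Cabin1 was the only one of them with an interaction call at 48 hr (-0.69 ± 0.17). Each of these calls rests on 1 probe set of its gene at that time. The array holds 6 probe sets for Smc6, 5 for Smc2, 3 for Cabin1 and 1 for Maz, so the calls are not results for all probe sets of a gene.

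Between vehicle genotypes, 3, 3, 4 and 0 of the same 55, 56, 97 and 86 kept probe sets were called at the 4 times, beside 3.40%, 4.08%, 2.98% and 0.0812% of all kept probe sets. Cabin1 was higher in Mgmt-/- brain at 6, 24 and 48 hr by 0.65, 0.48 and 0.51 log2 units. The Mgmt-/- vehicle arrays enter both these values and the Cabin1 differences after MAM, so the rise here and the fall there are not separate results. Of the cohesin regulators, the SMC3 deacetylase gene Hdac8 was lower at 6 hr (-0.62, adjusted p = 0.002 by limma), and at 48 hr Mau2, the partner of NIPBL, was higher (0.94, adjusted p = 0.001) while the release factor gene Wapl was lower (-0.40, adjusted p = 0.019). Of the CTCF partners, Nsd1, a histone methyltransferase gene, was lower at 6 and 24 hr (-0.50 and -0.55), Hnrnpu lower at 24 hr (-0.53 in probe set 1423051, although 1434390 gave 0.62 and was set aside) and Ldb1 higher at 48 hr (0.63). Each of these genes was called by 1 probe set at a time, of 3 for Cabin1, 4 for Mau2, 5 for Wapl, 4 for Nsd1 and 5 for Hnrnpu. Hdac8 and Ldb1 have 1 probe set each. The further cohesin subunits and the condensin and SMC5/6 genes had 0 calls between vehicle genotypes at any time.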

How the data were processed

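Brain RNA of 94 mice was hybridised to an Affymetrix array each. Per the labels and the study's methods, the authors computed the deposited log2 values with the RMA method of the affy package (version not given in the sources used here), which subtracts background, equalizes the arrays' distributions by quantiles and summarises the probes of a set by median polish. Differences in overall signal between arrays are thereby removed. The number of arrays limits the precision, and a depth does not apply. The p values set a group difference against the variation among these animals within groups. Whether a group's animals came from separate litters is not given, so whether that variation covers differences between litters is not known.

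The deposited values were used as they are. The limma package (version 3.58.1, in R 4.3.3) fitted every time point on its own, with genotype, treatment, genotype by treatment and number set as terms. The 2 sets of animal numbers were taken as the 2 laboratories of the study, which the labels do not state. Probe sets entered adjustment where all number-set interactions together had p above 0.15 by an F test, and p values were adjusted by Benjamini-Hochberg over all of them. Time among vehicle arrays was fitted per genotype. The script was tested on simulated data. Figures were drawn with matplotlib 3.10.9 (pandas 2.3.3, Python 3.11.15).

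Per-array values are given for member probe sets called in any contrast and, for genes with none, for the probe set with the highest mean. The 5 genes most like a called probe set have a mean of at least 5 log2 units. Values of Atrx 1420947 and Ctcf 1418330 were added after their values were seen. Members, lists, tests and alternatives were chosen with earlier results of these data known. The alternatives were no number-set filter, an ordinary linear model, no fold threshold, the RNA index as covariate, cyclic loess, no dim probe sets, array weights, each number set alone, all arrays in 1 fit, array MGMT.MAM.168.343 kept in, each array left out and, chosen after seeing the data, 2 arrays with low microglial markers left out. Probe target sequences were not used here, so no sequence is shown.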

Additional observations from a re-analysis of the deposited data

Results flagged for a closer look

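Of 96 groups of member values checked for a sample far from the others, 3 had one, where chance gives about 1 in 20 groups. For Atrx 1420945 in Mgmt-/- MAM brains at 6 hr, animal MGMT.MAM.6.329 read 5.56 log2 units, against 6.03 to 6.24 in the others. For Atrx 1450051, animal MGMT.VEH.48.317 read 6.70, against 7.46 to 7.74, and animal WT.MAM.168.145 read 6.19, against 7.04 to 7.36. All 3 animals belong to number set 1.

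At 48 hr the MAM response differed between Mgmt-/- and wt brain, by -2.32 log2 units for Atrx 1450051, -1.54 for Ctcf 1449042 and -1.34 for Esco1 1424325. These probe sets were chosen with their responses known, so the values are a description. Their wt vehicle means were also lower at 48 hr than at 6 and 24 hr.

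The Mgmt-/- MAM array MGMT.MAM.168.343, left out of every comparison, had a median liver marker value of 13.6 log2 units. On that array Atrx 1450051 read 5.21, Ctcf 1449042 read 6.89, Esco1 1424325 read 4.72 and Rad21 1455938 read 7.37.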

How the results depend on the processing

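Calls of member probe sets, summed over the 4 time points, numbered 4 after MAM in Mgmt-/- brain and 0 in wt brain. They numbered 3 in the interaction and 4 between vehicle genotypes, and 0 members were called for time among vehicle brains. In the first 4 comparisons a probe set counts once for each time point where it was called. Members tested were 9, 11, 20 and 20 at 6, 24, 48 and 168 hr, and all 35 without the number-set filter. Beside each count stands the share of all probe set tests called in the same setting. It was 0.691%, 0%, 0.325% and 2.40% for the first 4 comparisons. The Mgmt-/- count was 11 without the number-set filter (0.748%), 1 with a covariate for the RNA index (0.195%), 10 in number set 1 alone (0.722%), 15 in number set 2 alone (5.52%) and 10 in 1 fit of all arrays (0.775%). The wt count was 1 after cyclic loess (0.00179%), 1 without dim probe sets (0.00185%), 2 with array weights (0.256%) and 4 in number set 2 alone (0.598%). The interaction count was 1 and 6 in number sets 1 and 2 alone (0.00942% and 0.481%), where the Atrx and Ctcf calls at 48 hr were lost in both sets and the Esco1 call in set 1. The vehicle genotype count was 11 without the number-set filter (3.48%), 7 without a fold threshold (4.14%), 28 in number set 2 alone (12%) and 13 in 1 fit (4.01%). In number set 2 alone 12 of 35 member probe sets were called by time among wt vehicle brains (12%). The cause of these shifts was not tested. Without MGMT.VEH.6.903 and MGMT.VEH.6.905, a setting chosen after seeing the data, the Mgmt-/-, interaction and vehicle genotype counts were 5, 3 and 4. Leaving out 1 array gave 3 to 7, 0 to 2, 2 to 4 and 3 to 7 calls in these comparisons, and 0 for time. The Mgmt-/- count was 7 without WT.MAM.6.127 or WT.MAM.6.725, and the vehicle count was 7 without MGMT.VEH.48.317. The wt count was 2 without WT.VEH.48.115 and 1 without MGMT.VEH.48.317, MGMT.MAM.48.337, MGMT.MAM.48.965, WT.MAM.48.741 or WT.VEH.24.109.

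No named result changed direction in any of these settings. Of 117 values of called probe sets in other settings 96 stayed past the threshold, as did 246 of 257 with 1 array left out. Part of the 96 could not have been otherwise, so that count overstates how far the calls were tested. Dropping the fold threshold only loosens the rule, so it cannot remove a call. Keeping in the array with high liver markers changes only the fit of its own time point, where no member was called. With the RNA index, calls were lost for Ctcf 1449042, Atrx 1450051 and Esco1 1424325 after MAM at 48 hr and for Atrx 1420945, Atrx 1420946 and Esco1 1424325 between vehicle genotypes. Esco1 1424325 after MAM at 48 hr lost its call in 5 settings and without any 1 of 5 animals (WT.VEH.48.113, MGMT.VEH.48.313, MGMT.VEH.48.315, MGMT.MAM.48.337 or MGMT.VEH.48.917), with values of -0.57 to -0.51. Calls were also lost for Atrx 1450051 after MAM at 24 hr without WT.VEH.24.111 or WT.MAM.24.133 (-1.62), for Atrx 1420945 without WT.MAM.24.131 or MGMT.MAM.24.331 (-0.47), for Atrx 1420946 without MGMT.MAM.24.335 (-0.91) and for the Esco1 interaction without WT.VEH.48.113 (-1.30). No paired analysis was possible because each animal number occurs once.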
